A study of Mus musculus with 104 samples.

Results

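The 7 genes described here are Gh, Prl, Cga, Tshb, Lhb, Fshb and Pou1f1, the genes of the anterior pituitary that encode growth hormone, prolactin and the subunits of thyrotropin, lutropin and follitropin, with the transcription factor that drives several of them. They were chosen by name, with earlier results of these data known. They stand among 28786 gene names on the array design of 41174 probes and 30993 gene names on the design of 43674 probes. Each gene is given by the brightest of its probes that both designs carry, and Pou1f1 is called Pit1 in the array files. Of the 96 arrays with scanner files, Lhb was well above background, by the flag of the scanner software, on 96, Cga on 93, Fshb on 77, Prl on 54, Gh on 53, Tshb on 51 and Pou1f1 on 2.

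The study asked how aging changes RNA levels in mouse brain regions, and hybridized whole-tissue RNA of single mice in 1 colour to Agilent whole mouse genome arrays, where a transcript is read as the brightness of a 60-base probe. The series holds 104 samples in 7 cohorts, each of 1 strain and 1 region. The 8 frontal cortex samples without scanner files enter only where the authors' own normalized values are used. Male BALB mice gave hypothalamus from 7 young (2 to 3 months), 5 middle-aged (12 to 13 months) and 6 aged (20 to 23 months) mice, cerebellum from 5 young, 6 middle-aged and 4 aged (21 to 23 months) mice, and striatum from 3 young, 5 middle-aged and 5 aged (21 to 23 months) mice. Male C57BL6/J mice gave hypothalamus from 5 young (2 to 3 months) and 5 aged (22 to 24 months) mice, and male C57BL/6 mice gave cerebellum from 4 young, 2 middle-aged and 6 aged (21 to 23 months) mice. Both are called C57BL/6 from here on. Male CBA mice gave hypothalamus from 7 young, 5 middle-aged and 8 aged (21 to 23 months) mice. Frontal cortex came from female BALB mice, with 4 young (2 to 3 months) and 4 old (15 to 16 months) on arrays with scanner files. The mice came from an aging colony, and the labels name no treatment and no transgene. Each array holds the RNA of 1 mouse, from a whole piece of tissue cut by hand after decapitation.

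The anterior pituitary hangs below the hypothalamus on a stalk, and its endocrine cells each make their own hormone: somatotrophs growth hormone, lactotrophs prolactin, thyrotrophs thyrotropin and gonadotrophs lutropin and follitropin. The last 3 hormones share the alpha subunit encoded by Cga and differ in the beta subunit, encoded by Tshb, Lhb or Fshb. POU1F1, long known as PIT-1, binds the promoters of Gh, Prl and Tshb and is needed for the cells that make them, and PITX1 acts on the promoters of most of these hormones. The pars tuberalis, a thin sleeve of pituitary tissue around the stalk that touches the base of the hypothalamus, makes Cga and Tshb but little Gh or Prl, and sits where a dissection of the hypothalamus has to cut. In whole-tissue RNA, fewer cells of a type and less RNA per cell cannot be told apart.

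The DNA just before the start of 4 of these genes is shown because Prl, Cga, Tshb and Pou1f1 were high together on a single array described further on, and because POU1F1 is known to act at the promoters of Prl and Tshb. Each run is the 250 bases before the RefSeq start, 5′ to 3′ on the strand of the gene, in the GRCm38.p6 assembly. The capitals mark ATGNATA, a short form of the site POU1F1 favours, and TATAAA, the core of a TATA box, each found on either strand. The windows lie at chr13:27057320-27057569 on the plus strand for Prl, chr4:34893529-34893778 on the plus strand for Cga, chr3:102782715-102782964 on the minus strand for Tshb and chr16:65520262-65520511 on the plus strand for Pou1f1.
Prl: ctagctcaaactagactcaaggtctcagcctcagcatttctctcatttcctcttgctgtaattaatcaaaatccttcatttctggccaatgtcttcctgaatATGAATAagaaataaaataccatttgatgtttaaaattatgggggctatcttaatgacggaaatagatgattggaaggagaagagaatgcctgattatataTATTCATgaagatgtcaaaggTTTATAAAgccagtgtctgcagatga
Cga: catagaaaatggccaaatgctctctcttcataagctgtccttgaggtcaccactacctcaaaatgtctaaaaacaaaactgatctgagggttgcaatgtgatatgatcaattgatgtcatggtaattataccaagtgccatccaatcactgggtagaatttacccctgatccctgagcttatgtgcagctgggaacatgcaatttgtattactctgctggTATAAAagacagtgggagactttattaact
Tshb: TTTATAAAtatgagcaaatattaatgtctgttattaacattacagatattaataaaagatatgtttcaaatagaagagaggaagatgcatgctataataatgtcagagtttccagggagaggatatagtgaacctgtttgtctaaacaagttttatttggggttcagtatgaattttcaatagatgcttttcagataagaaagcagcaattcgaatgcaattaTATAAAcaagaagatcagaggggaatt
Pou1f1: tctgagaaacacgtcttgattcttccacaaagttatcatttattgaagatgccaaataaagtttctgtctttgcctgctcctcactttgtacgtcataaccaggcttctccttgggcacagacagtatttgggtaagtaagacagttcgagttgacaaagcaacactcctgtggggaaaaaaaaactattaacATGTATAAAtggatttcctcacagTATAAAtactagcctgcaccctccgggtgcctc
ATGNATA occurred in the Prl window 2 times, with first bases at -148 and -47 from the start, and in the Pou1f1 window 1 time, at -57, where it overlaps a TATAAA match at -54. It did not occur in the windows of Cga, Tshb, Lhb or Fshb. Of 32851 windows of this length before RefSeq starts, 7.92% held it and 1.26% held 2 or more. TATAAA had a match between -33 and -24 in each of the windows of Prl, Cga, Tshb, Lhb, Fshb and Pou1f1, and 12.4% of all windows held it at any position. On the Prl window its 2 matches, at -26 and -24, share bases because 1 lies on each strand. The window before another RefSeq start of Pou1f1, not shown, held neither motif. These are matches of letters and say nothing about whether a factor binds. The probe that read Gh is shown because the widest range below was read through it.
Gh probe: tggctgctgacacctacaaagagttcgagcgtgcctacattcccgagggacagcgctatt

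Levels below are log2 of the background-subtracted intensity, quantile normalized within a cohort, so a difference of 1 is a factor of 2 and levels of different cohorts are on scales of their own. All 48 arrays labelled hypothalamus had 8 of 8 hypothalamus marker genes well above background, with a mean marker level of 10.61 to 12.57. The count does not set the region apart, as the 8 frontal cortex arrays also had 8 of 8, at 7.60 to 9.60. The highest mean level on an array of another label was 10.40. The labels of other regions did not all hold. Among the BALB arrays labelled striatum, 12 of 13 carried cerebellum markers at a mean level of 14.64 to 15.82. Among those labelled cerebellum, the 11 young and middle-aged arrays had cerebellum markers at 9.50 to 12.31 and hypothalamus markers at 9.24 to 10.40, against 14.70 to 15.87 and 6.61 to 7.67 on the 4 aged arrays, so age and tissue cannot be told apart in that cohort. Aged C57BL/6 hypothalamus array 1 carried cerebellum markers at 13.75, where the young arrays of that cohort reached 9.66. The share of probes well above background ran from 56.1% to 92.1% over the 96 arrays, and was 89.9% on young BALB hypothalamus array 1, where the median of its cohort was 67.2%.

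**Figure D1:**
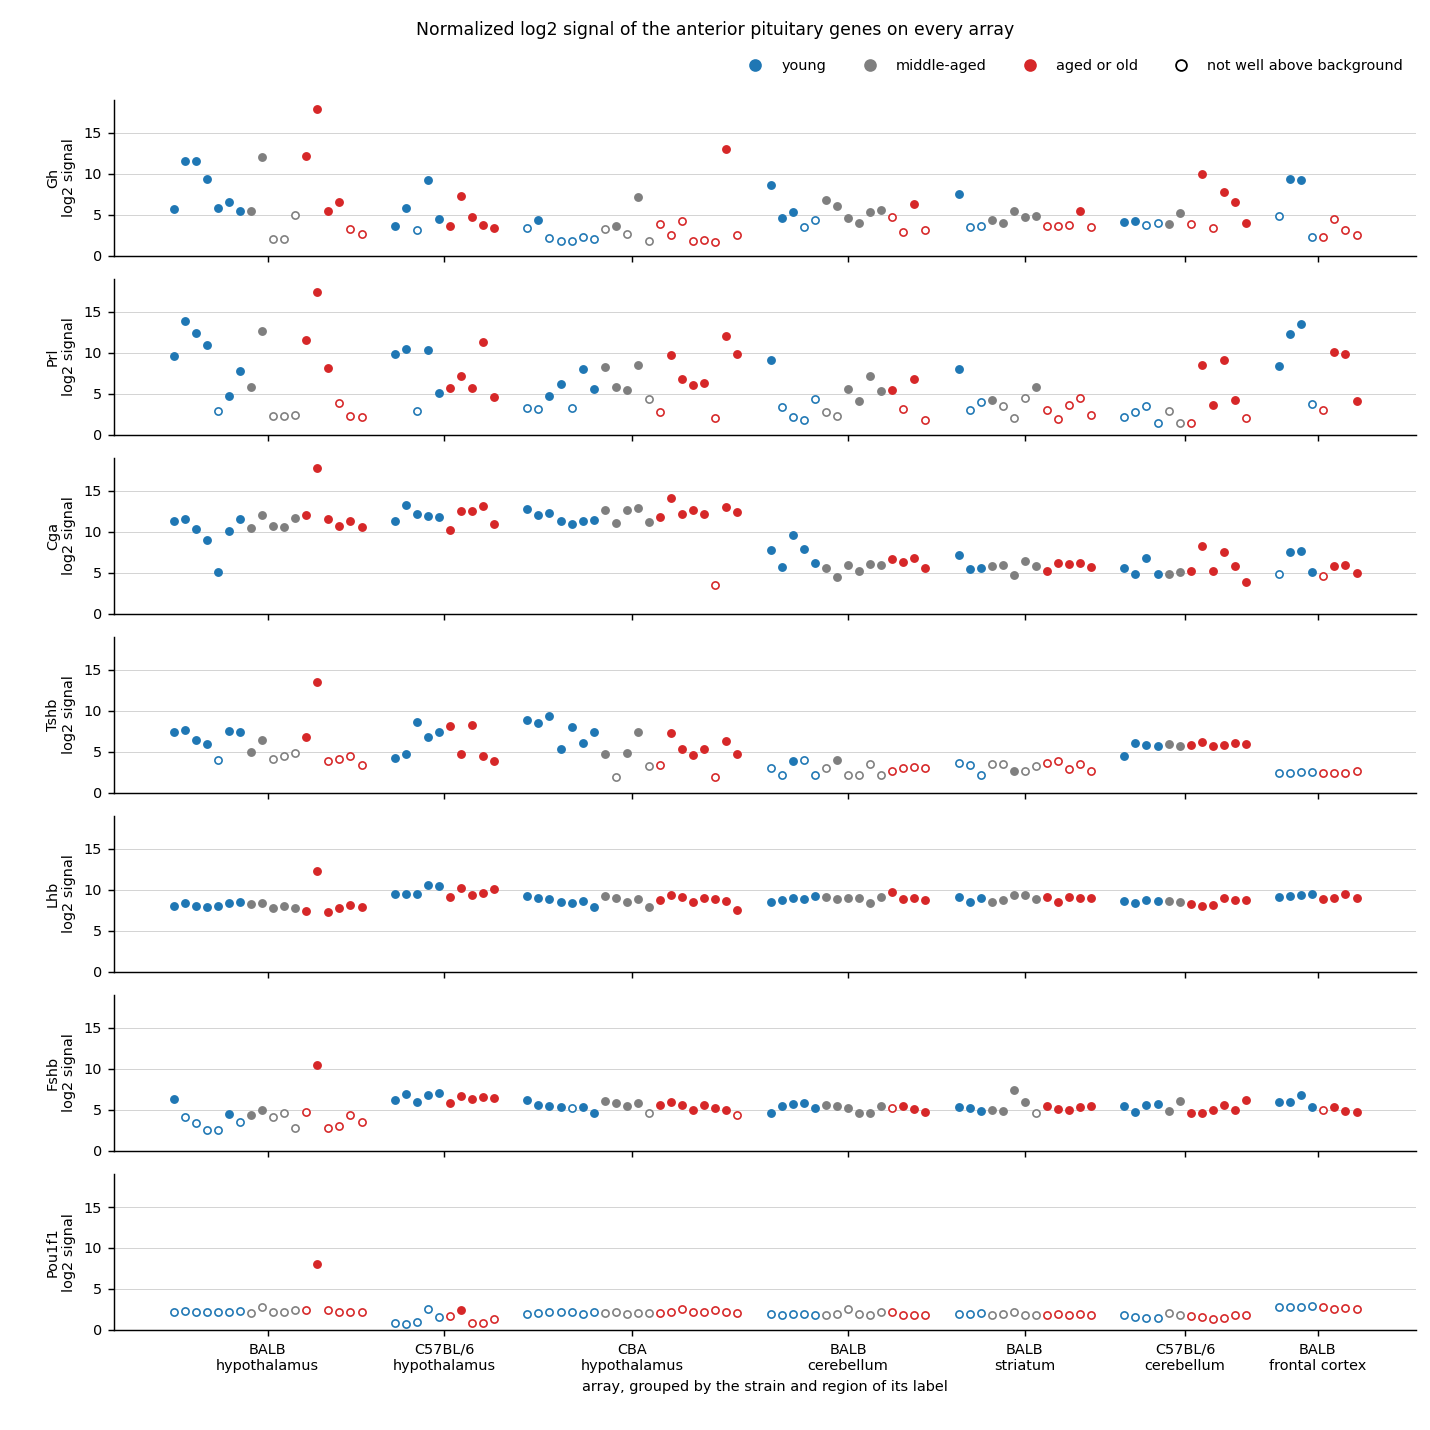
Normalized log2 signal of the 7 genes (1 panel each) on the 96 arrays with scanner files, grouped by cohort along the horizontal axis, 1 point per array, with colour for age group and open points for arrays where the probe was not well above background. Gh ran from 2.02 to 17.93 in BALB hypothalamus, Cga was above 10 on most hypothalamus arrays and below 10 on all others, and Pou1f1 stood at 8.05 on 1 array.

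Gh, the growth hormone gene, varied between mice of a single strain and age more than it varied between ages. In BALB hypothalamus its level ran from 2.02 to 17.93 with a median of 5.77, and it was well above background on 13 of 18 arrays. The 7 young arrays ran from 5.42 to 11.59 with a median of 6.52, the 5 middle-aged arrays read 5.43, 12.06, 2.02, 2.02 and 4.96, and the 6 aged arrays ran from 2.65 to 17.93 with a median of 5.97. Gh was well above background on all 7 young arrays, on 2 of 5 middle-aged arrays and on 4 of 6 aged arrays, and the 3 groups overlapped over most of their range. The 5 young C57BL/6 hypothalamus arrays read 3.65, 5.82, 3.20, 9.31 and 4.50 and the 5 aged ones 3.69, 7.31, 4.77, 3.76 and 3.38, with 9 of 10 well above background. In CBA hypothalamus Gh was well above background on 4 of 20 arrays, at 4.31 in a young mouse, 3.64 and 7.23 in middle-aged mice and 13.07 in an aged mouse.

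In the cohorts labelled as other regions Gh had medians of 4.73 in BALB cerebellum, 4.09 in C57BL/6 cerebellum, 4.00 in BALB striatum and 3.84 in BALB frontal cortex. By the marker levels above, the BALB cerebellum and striatum labels did not all hold, so these are medians by label. In the hypothalamus cohorts the medians were 5.77 in BALB, 4.13 in C57BL/6 and 2.59 in CBA, and in the order of all 7 medians the ranges of all neighbours overlapped. Single arrays stood high in the cohorts of other labels too. Young BALB cerebellum array 1 read 8.63, young BALB striatum array 1 read 7.56, aged C57BL/6 cerebellum arrays 2 and 4 read 9.99 and 7.77, and young frontal cortex arrays 2 and 4 read 9.39 and 9.29. None of the 4 old frontal cortex arrays had Gh well above background. Levels above 9 in BALB hypothalamus occurred on 6 arrays lying on 5 slides.

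Prl, the prolactin gene, was high on many of the same arrays. In BALB hypothalamus the 7 young arrays ran from 2.96 to 13.86 with a median of 9.56, the 5 middle-aged arrays read 5.88, 12.69, 2.32, 2.32 and 2.39, and the 6 aged arrays ran from 2.17 to 17.45 with a median of 5.98. Every one of the 11 BALB hypothalamus arrays with Prl well above background also had Gh well above background, 2 had Gh alone and 5 had neither. Of the C57BL/6 hypothalamus arrays, 9 of 10 had both and 1 had neither. The young arrays of that cohort read 9.90, 10.51, 2.95, 10.31 and 5.06 for Prl and the aged arrays 5.74, 7.16, 5.67, 11.35 and 4.63. In CBA hypothalamus Prl was well above background on 14 of 20 arrays, 3 of them with Gh and 11 without. In order of the medians the cohorts were BALB frontal cortex at 9.13, BALB hypothalamus at 6.83, C57BL/6 hypothalamus at 6.45, CBA hypothalamus at 5.93, BALB cerebellum at 4.07, BALB striatum at 3.59 and C57BL/6 cerebellum at 2.83, and the ranges of all neighbours overlapped. Over all 96 arrays both were well above background on 37, neither on 26, Gh alone on 16 and Prl alone on 17.

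Across the 18 BALB hypothalamus arrays the levels of Gh and Prl rose together, with Pearson's r = 0.918 and Spearman's rho = 0.870. Both had a permutation p of 1e-05, the smallest that 100000 resamples can give, and an adjusted p of 0.00022 over the 22 relations of Gh computed. Without aged arrays 2 and 1, the farthest from the median of Gh, r was 0.884 with an adjusted permutation p of 0.00044, and within age groups, as deviations from the group means, it was 0.917. As deviations from slide means it was 0.918 (adjusted permutation p = 0.00022). Of the 22 relations, 5 passed an adjusted p of 0.05 by r and 2 by rho, the other one to pass by both being that of Gh with Tshb on the same 18 arrays, at r = 0.792 and rho = 0.674 (adjusted permutation p = 0.00286 and 0.0314). That relation was r = 0.779 within age groups and 0.830 within slides, but 0.605 (adjusted permutation p = 0.153) without aged arrays 2 and 1. The relation of Gh with Prl in C57BL/6 hypothalamus was r = 0.423 and rho = 0.552 over 10 arrays (adjusted permutation p = 0.367 for r), and it was not computed for CBA, where Gh was above background on too few arrays. In C57BL/6 cerebellum r was 0.852 and rho 0.371 (adjusted permutation p = 0.0245 and 0.399), and in BALB striatum r was 0.746 and rho 0.670 (adjusted permutation p = 0.0409 and 0.110). Gh with Cga in C57BL/6 cerebellum gave r = 0.793 and rho = 0.378 (adjusted permutation p = 0.0245 and 0.399). These 3 rest on single arrays: without the 2 arrays farthest from the median of Gh, r was 0.276, 0.285 and 0.151. Within slides they were r = 0.832, 0.744 and 0.806, the one in striatum with an adjusted permutation p of 0.0709 over 9 arrays.

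**Figure D2:**
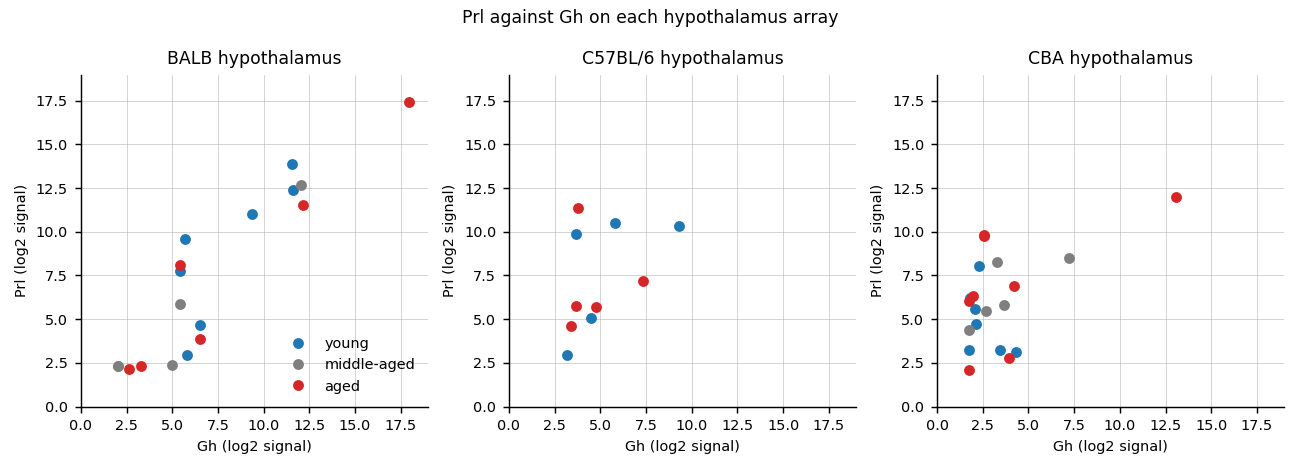
Normalized log2 signal of Prl against that of Gh on the hypothalamus arrays, 1 panel per strain and 1 point per array, coloured by age group. The 18 BALB arrays lie along a line (r = 0.918) that ends at aged array 2 with Gh at 17.93 and Prl at 17.45, while 11 of 20 CBA arrays have Prl well above background without Gh.

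Cga, the shared alpha subunit, set the hypothalamus cohorts apart from the others. Its median was 11.03 in BALB, 12.05 in C57BL/6 and 12.18 in CBA hypothalamus, against 6.11 in BALB cerebellum, 5.83 in BALB striatum, 5.48 in BALB frontal cortex and 5.22 in C57BL/6 cerebellum. The 3 hypothalamus medians were above the 4 others in all 12 pairs, on the log2 scale and by the rank of the probe within its array. The ranges of the 3 hypothalamus cohorts overlapped each other, as did those of the 4 other cohorts, and between these sets they met through 3 low hypothalamus arrays, young BALB arrays 5 and 4 at 5.16 and 9.03 and aged CBA array 6 at 3.50, the last not well above background. The cohorts were hybridized and normalized apart, so no test was made between them.

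Within the hypothalamus most arrays agreed on Cga to within a few log2 units. The 7 young BALB arrays ran from 5.16 to 11.59 with a median of 10.35, the 5 middle-aged arrays read 10.53, 12.12, 10.77, 10.55 and 11.67, and the 6 aged arrays ran from 10.62 to 17.74 with a median of 11.44. The young C57BL/6 arrays read 11.34, 13.31, 12.19, 11.92 and 11.76, and the aged arrays 10.21, 12.60, 12.56, 13.10 and 11.01. In CBA the young arrays ran from 10.96 to 12.77, the middle-aged from 11.03 to 12.93 and the aged from 3.50 to 14.09, with 7 of the 8 aged arrays at 11.85 or more. The age groups overlapped in each strain. Across the BALB arrays Gh and Cga gave r = 0.53 (adjusted permutation p = 0.0853) and rho = 0.243, and without aged array 2 this was r = 0.137 (17 arrays). Within age groups it was r = 0.631 (adjusted permutation p = 0.0215), past the threshold, and within slides 0.450 (0.122).

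Tshb, the beta subunit of thyrotropin, gave the comparison with age that came nearest to the threshold. In CBA hypothalamus the 7 young arrays ran from 5.40 to 9.35 with a median of 8.05, the 5 middle-aged arrays read 4.71, 1.90, 4.81, 7.43 and 3.32, and the 8 aged arrays ran from 1.91 to 7.29 with a median of 5.07. All 7 young arrays were well above background, against 3 of 5 middle-aged and 6 of 8 aged arrays, and the lowest young array lay within the range of both older groups. The group means were 7.67 ± 1.46 (SD, n = 7) in young, 4.43 ± 2.05 (n = 5) in middle-aged and 4.89 ± 1.67 (n = 8) in aged mice. Aged minus young was -2.78 log2 units (SE 0.81, 95% interval -4.47 to -1.08), or 6.86-fold lower, with B = -1.51 and a limma adjusted p of 0.30, so it was not called. Middle-aged minus young was -3.24 (SE 0.92) with B = -3.19 and a limma adjusted p of 1, and aged minus middle-aged was 0.46 (SE 0.90). For these single comparisons the two-sided exact permutation test gave unadjusted p = 0.00575 and 0.0126 against the young mice and 0.660 between the older groups. The call differed under 2 other ways of making the values, since B was 0.15 with normexp correction of the mean spot signal and 0.35 on the authors' own normalized values, with differences of -1.48 and -1.60. A second Tshb probe gave no level to compare, as it was not well above background on any of the 20 CBA arrays, at 1.86 to 2.74.

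In BALB hypothalamus Tshb ran from 3.99 to 7.64 with a median of 7.42 in young mice, read 4.97, 6.48, 4.09, 4.47 and 4.86 in middle-aged mice, and ran from 3.37 to 13.55 with a median of 4.34 in aged mice. It was well above background on 6 of 7 young, 2 of 5 middle-aged and 2 of 6 aged arrays. Aged minus young was -0.59 (SE 1.26) over all arrays and -2.09 (SE 0.67, limma adjusted p = 0.271, B = -2.31) without aged array 2, and neither was called. Middle-aged minus young was -1.67 (SE 1.33), with an unadjusted exact permutation p of 0.0429. In C57BL/6 hypothalamus the young arrays read 4.28, 4.78, 8.63, 6.80 and 7.41 and the aged arrays 8.11, 4.72, 8.33, 4.51 and 3.88, a difference of -0.47 (SE 1.09, 95% interval -2.87 to 1.93). The interval there is wide enough to hold a difference as large as the one in CBA near its lower end. By label, Tshb was well above background on 2 of 15 BALB cerebellum, 1 of 13 BALB striatum and 0 of 8 frontal cortex arrays. On the C57BL/6 cerebellum arrays it was so on 12 of 12, where it kept between 4.49 and 6.15. The second Tshb probe was well above background on 14 of 15 BALB cerebellum, 13 of 13 BALB striatum, 12 of 12 C57BL/6 cerebellum and 1 of 8 frontal cortex arrays, and on 8 of 18 BALB, 10 of 10 C57BL/6 and 0 of 20 CBA hypothalamus arrays, so the 2 probes disagree on where Tshb is measured. By the probe that stands for Tshb, the order of cohort medians was C57BL/6 cerebellum at 5.84, C57BL/6 hypothalamus at 5.79, BALB hypothalamus at 5.50, CBA hypothalamus at 5.40, BALB striatum at 3.45, BALB cerebellum at 2.99 and BALB frontal cortex at 2.45, and ranges of neighbours overlapped. By the rank of the probe within its array, each of the 3 hypothalamus medians was above each of the 4 others.

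Lhb and Fshb encode the beta subunits of the gonadotropins. Lhb was well above background on every array, with cohort medians of 9.54 in C57BL/6 hypothalamus, 9.20 in BALB frontal cortex, 9.04 in BALB striatum, 8.97 in BALB cerebellum, 8.78 in CBA hypothalamus, 8.60 in C57BL/6 cerebellum and 7.99 in BALB hypothalamus. The hypothalamus median was the higher one in 5 of 12 pairs of cohorts, and in 9 of 12 by the rank of the probe within its array, so the order depends on the scale. Its spread was small in most groups, with an SD of 0.26 among the 7 young BALB hypothalamus arrays and 0.44 among the 7 young CBA arrays, and wide among the 6 aged BALB hypothalamus arrays, at 1.88, where array 2 read 12.28. A second Lhb probe was well above background on 22 of the 96 arrays. Fshb had medians between 5.18 and 5.50 in 5 cohorts, 6.48 in C57BL/6 hypothalamus and 4.12 in BALB hypothalamus, where it was well above background on 5 of 18 arrays. Its young C57BL/6 hypothalamus arrays read 6.17, 6.92, 5.95, 6.87 and 7.06 and its aged arrays 5.82, 6.66, 6.38, 6.55 and 6.40, a difference of -0.23 (SE 0.24).

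Pou1f1, the transcription factor of somatotrophs, lactotrophs and thyrotrophs, was well above background on 2 of 96 arrays. It read 8.05 on aged BALB hypothalamus array 2, where the other 17 arrays of the cohort lay between 2.12 and 2.77 and none was well above background. The other array was aged C57BL/6 hypothalamus array 2, at 2.38, within the range of 0.77 to 2.51 of its cohort. Over all arrays, 7 of 7 genes were well above background on these 2 arrays, 6 on 17 arrays, 5 on 36, 4 on 16, 3 on 17, 2 on 7 and 1 on 1 array.

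Differences with age were tested in 17 comparisons within cohorts, and no member passed B > 0 in any. Of 5 members tested for aged against young BALB hypothalamus, 0 were called, where 0.913% of the 18955 genes tested were. Middle-aged against young and aged against middle-aged BALB hypothalamus gave 0 of 5 and 0 of 4, where 0.234% and 0.227% of genes were called. C57BL/6 hypothalamus gave 0 of 6 (0.142% of genes). CBA hypothalamus gave 0 of 5 for aged against young (0.415%), for middle-aged against young (0%) and for aged against middle-aged (0.0504%). In BALB cerebellum, where tissue differed with age, it was 0 of 5 for aged against young (7.43%), 0 of 6 for middle-aged against young (0%) and 0 of 6 for aged against middle-aged (8.07%). BALB striatum gave 0 of 4, 0 of 6 and 0 of 5 in the same order, where 0% of genes were called in each. C57BL/6 cerebellum gave 0 of 6 (0.383%), 0 of 5 (0.0279%) and 0 of 6 (0.909%), and frontal cortex, old against young, 0 of 4 (0%). Against shares this low, 0 of 4 to 6 members is no result about the members. Of the 82 tests that passed the filter on low signal, read by the probe that stands for each gene, 5 had an unadjusted limma p under 0.05, a share that ran from 0.727% to 34% over all genes of a comparison. They were Cga in aged against young BALB hypothalamus, Tshb in both CBA comparisons with young mice, Cga in middle-aged against young BALB cerebellum and Fshb in frontal cortex. The counts by comparison above take a gene as tested by any of its probes, which makes 88 tests, and 8 of these had such a p, among them Tshb and Lhb in BALB striatum by their second probes.

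The differences of the members were larger than those of the median gene in the hypothalamus, and in most comparisons of other labels too. The median absolute difference over the members tested was 0.59 log2 units for aged against young BALB hypothalamus, where it was 0.11 over all probes tested, and 1.67 where it was 0.14 for middle-aged against young. It was 0.35 where it was 0.10 in C57BL/6 hypothalamus and 0.25 where it was 0.09 for aged against young CBA hypothalamus. In frontal cortex it was 0.97 where it was 0.25, and for aged against young C57BL/6 cerebellum 0.44 where it was 0.14. The reverse was seen only for aged against middle-aged BALB cerebellum, at 0.23 where it was 0.38. All 6 differences tested in C57BL/6 hypothalamus were below 0, from -0.84 to -0.19, and none passed the test. The spread between mice of a group was as wide. In BALB hypothalamus Gh had a mean of 8.00 ± 2.77 (SD, n = 7) in young and 7.99 ± 5.92 (n = 6) in aged mice, a difference of -0.0024 with a 95% interval of -4.81 to 4.80. Prl had means of 8.89 ± 4.00 and 7.57 ± 6.07, a difference of -1.32 (SE 2.55). At such spread a change of many fold could have gone unseen.

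**Figure D3:**
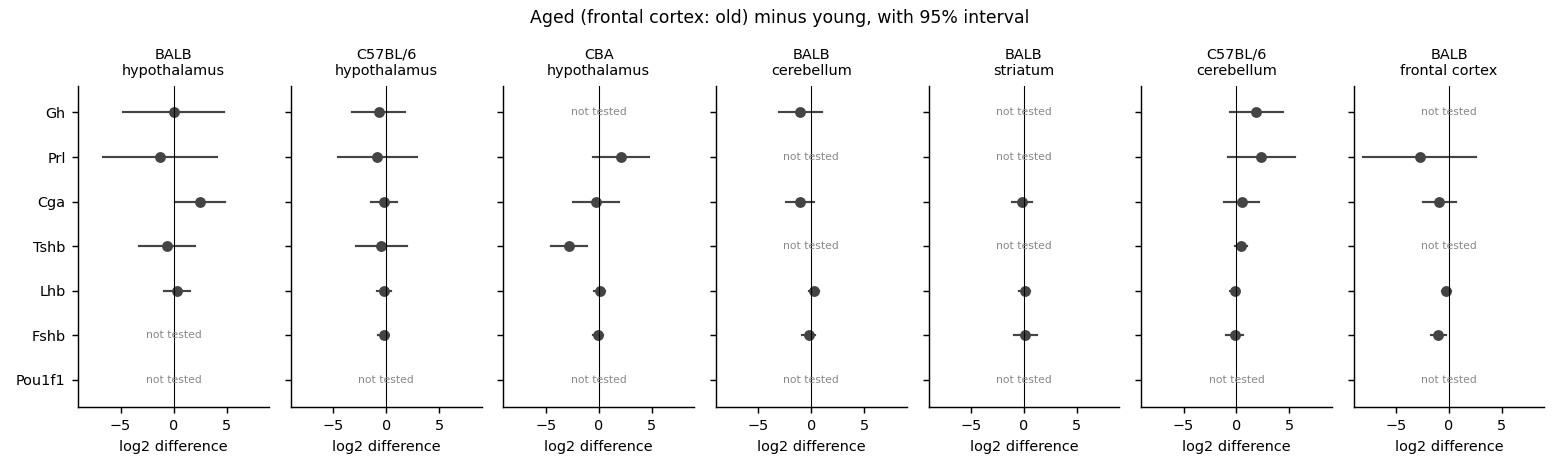
Aged (or old, in frontal cortex) minus young difference of each gene in log2 units, with its 95% interval from limma, in the 7 cohorts, and "not tested" where the gene failed the filter on low signal. The intervals of Tshb in CBA hypothalamus (-4.47 to -1.08), Cga in BALB hypothalamus (0.12 to 4.83) and Fshb in frontal cortex (-1.72 to -0.32) leave out 0 before adjustment, and none of the 3 was called. Prl in C57BL/6 cerebellum is set against young arrays that are all not well above background.

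Cga was higher in aged than young BALB hypothalamus by 2.47 log2 units (SE 1.12, 95% interval 0.12 to 4.83), with a limma adjusted p of 0.565, B = -4.01 and an unadjusted exact permutation p of 0.0717. The means were 12.34 ± 2.70 (SD, n = 6) and 9.86 ± 2.27 (n = 7). The difference rested on 2 arrays, since it was 1.39 without aged array 2 and 1.69 without young array 5. Gh, Prl and Lhb also turned on aged array 2: without it aged minus young was -1.99 (SE 1.90) for Gh, -3.29 (SE 2.27) for Prl and -0.42 (SE 0.17, limma adjusted p = 0.419) for Lhb, against 0.33 (SE 0.58) for Lhb with it. In CBA hypothalamus Cga differed by -0.25 (SE 1.05) between aged and young mice, and by 0.89 (SE 0.37, limma adjusted p = 0.940) without aged array 6. Prl was higher there by 2.09 (SE 1.26, limma adjusted p = 0.823). In C57BL/6 hypothalamus Gh, Prl, Cga and Lhb differed by -0.72 (SE 1.14), -0.84 (SE 1.70), -0.21 (SE 0.56) and -0.19 (SE 0.29), each with a limma adjusted p of 0.997. Without aged array 1, which carried cerebellum markers, these were -0.49 (SE 1.25), -0.54 (SE 1.87), 0.21 (SE 0.47) and -0.07 (SE 0.30), and Tshb was -1.02 (SE 1.09).

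Outside the hypothalamus Gh differed by 1.89 (SE 1.14) log2 units between aged and young C57BL/6 cerebellum, with a limma adjusted p of 0.759. Prl was not well above background on any of the 4 young arrays and was on 4 of 6 aged arrays, so it passed the filter on low signal through the aged group alone. Its aged mean was 4.84 ± 3.24 (SD, n = 6) with a median of 3.98, and its young mean of 2.48 is not a measured level. With each young array set no lower than its dimmest probe well above background, the young mean was 3.79. The difference was not called (limma adjusted p = 0.759), and no fold is read from it. The 6 aged arrays ran from 3.42 to 9.99 for Gh and from 1.45 to 9.07 for Prl, and the 4 young arrays read 4.13, 4.30, 3.81 and 4.03 for Gh. Arrays 2 and 4 held the 2 highest aged values of both genes and of Cga. Cga was lower in middle-aged than young BALB cerebellum by -1.90 (SE 0.56, limma adjusted p = 1, unadjusted exact permutation p = 0.0130), the 2 groups whose cerebellum markers lay below those of the aged arrays. In frontal cortex Fshb differed by -1.02 (SE 0.31, limma adjusted p = 0.841). The exact permutation p was 0.0571, where 4 against 4 arrays allow 0.0286 at the least.

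Aged BALB hypothalamus array 2 stood apart from the other 17 arrays of its cohort for all 7 genes. Gh read 17.93 where the next array read 12.13, a 55.9-fold gap, and Cga read 17.74 where the next read 12.12, a 49.4-fold gap. Prl read 17.45 and next 13.86, which is 12.0-fold. Tshb read 13.55 and next 7.64, 59.9-fold. Lhb read 12.28 and next 8.53, 13.5-fold, and Fshb read 10.53 and next 6.30, 18.7-fold. Ordered by the gap between this array and the next among the 27054 probes tested, Tshb ranked 1, Gh 3, Cga 4, Lhb 8 and Prl 11. This array was the highest of the 18 for 6.61% of probes tested and by more than 1 log2 unit for 0.488%, against 7 of 7 members by either count. The array was picked because the members were high on it, so their counts and ranks follow in part from that choice. Fshb and Pou1f1 failed the filter on low signal and are not among the probes tested. The second probes of Tshb and Lhb did not follow, at 3.95 and 2.40 there, neither well above background.

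The genes that go with these hormones in the pituitary were high on the same array in part. Among 12 transcription factors of the anterior pituitary, 6 had their highest level there. Pitx1, which acts on most hormone genes, read 12.42 and next 9.07, Lhx3, needed to form the gland, 8.15 and next 5.00, and Neurod4 5.08 and next 2.68, while Gata2, Six6 and Lhx4 were highest by less than 1 log2 unit. Hesx1 was not well above background there, and Isl1, Nr5a1 and Foxl2 were among those higher on another array. Of 8 receptors of pituitary endocrine cells, 2 were highest there, each by over 3 log2 units: Gnrhr, the receptor for gonadotropin-releasing hormone, at 8.58 and next 2.82, and Ghrhr, the receptor for growth hormone-releasing hormone, at 8.90 and next 5.31. Of 6 genes of corticotrophs and the intermediate lobe 4 were, among them Pomc, the precursor of corticotropin, at 18.12 and next 15.60, and Tbx19, its activator, at 6.24 and next 3.57. Of 5 proteins of secretory granules 3 were, with Chgb at 17.52 and next 16.89. The hypothalamus marker level of aged BALB arrays lay between 11.37 and 12.06, this array included. Whether pituitary tissue came with this dissection was not tested.

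**Figure D4:**
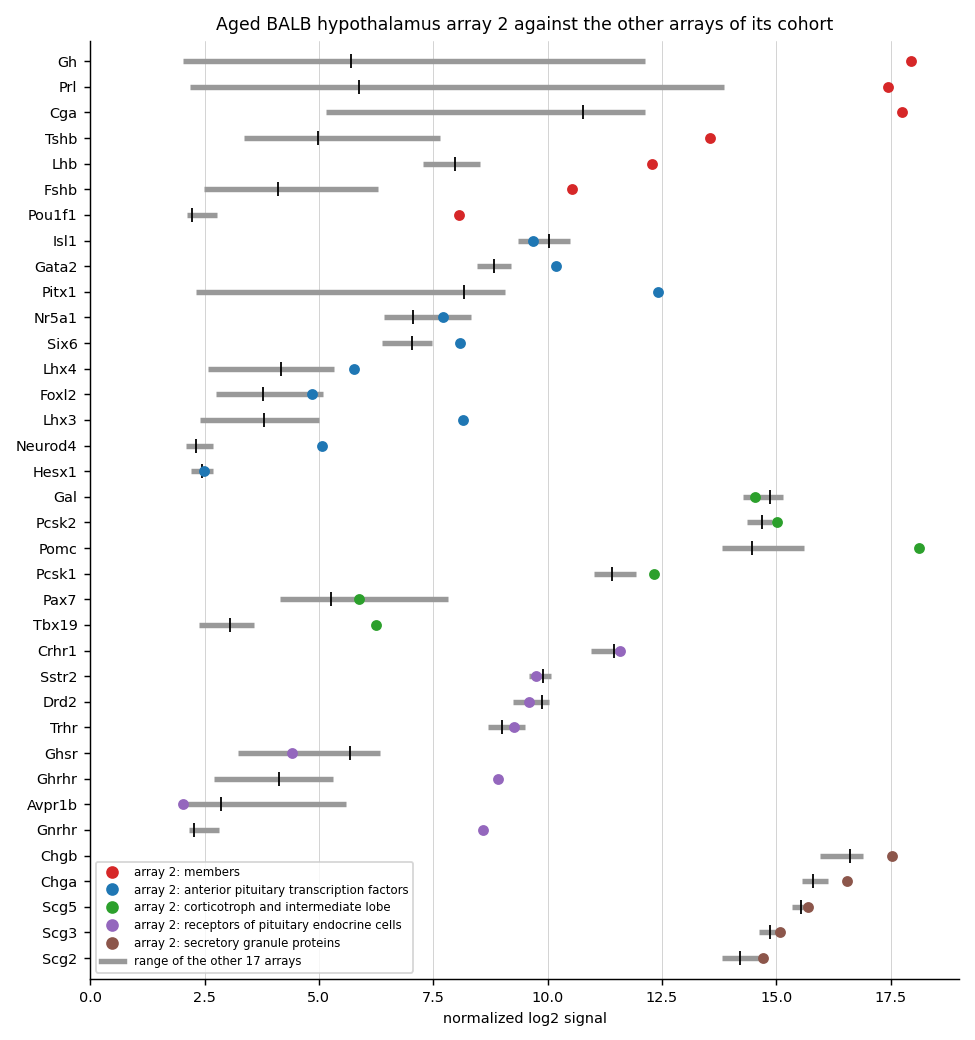
Normalized log2 signal on aged BALB hypothalamus array 2 (coloured dots) beside the range (grey bars) and median (black ticks) of the other 17 BALB hypothalamus arrays, for the 7 members and genes of 4 lists of pituitary markers. All 7 members lie above the bars, as do Pitx1 (12.42), Lhx3 (8.15), Gnrhr (8.58), Ghrhr (8.90) and Pomc (18.12), while Ghsr and Avpr1b do not.

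Pitx1 and Cga were low together on single arrays, a pair picked after the values had been seen and so given without a test. In BALB hypothalamus the correlation of Pitx1 with Cga was r = 0.960 over 18 arrays, 0.947 without young array 5, the lowest, and 0.789 without aged array 2 as well. Young array 5, where Cga read 5.16, had Pitx1 at 2.31, not well above background, and the other 16 arrays apart from aged array 2 lay between 6.30 and 9.07. With Gh, Prl and Tshb the values were 0.397, 0.441 and 0.577, and -0.031, -0.038 and -0.081 without both of these arrays. In CBA hypothalamus Pitx1 and Cga gave r = 0.942 over 20 arrays, but 0.520 without aged array 6 and 0.268 without aged array 2, the highest, as well. On aged array 6 Cga read 3.50 and Pitx1 2.16, neither well above background. Pitx1 and Tshb gave r = 0.557 and rho = 0.686 over the CBA arrays, and r = 0.614 without aged arrays 6 and 2. All other CBA arrays had Pitx1 between 8.76 and 11.34. The C57BL/6 hypothalamus value was r = 0.576 over 10 arrays. Young BALB array 5 kept Gh at 5.84, well above background, but Prl and the probe that stands for Tshb were not well above background on it, while the second Tshb probe was, at 5.28, and on aged CBA array 6 Gh, Prl and Tshb were all not well above background, at 1.73, 2.09 and 1.91. Lhb read 8.01 and 8.88 on these 2 arrays, inside the range of the other arrays.

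**Figure D5:**
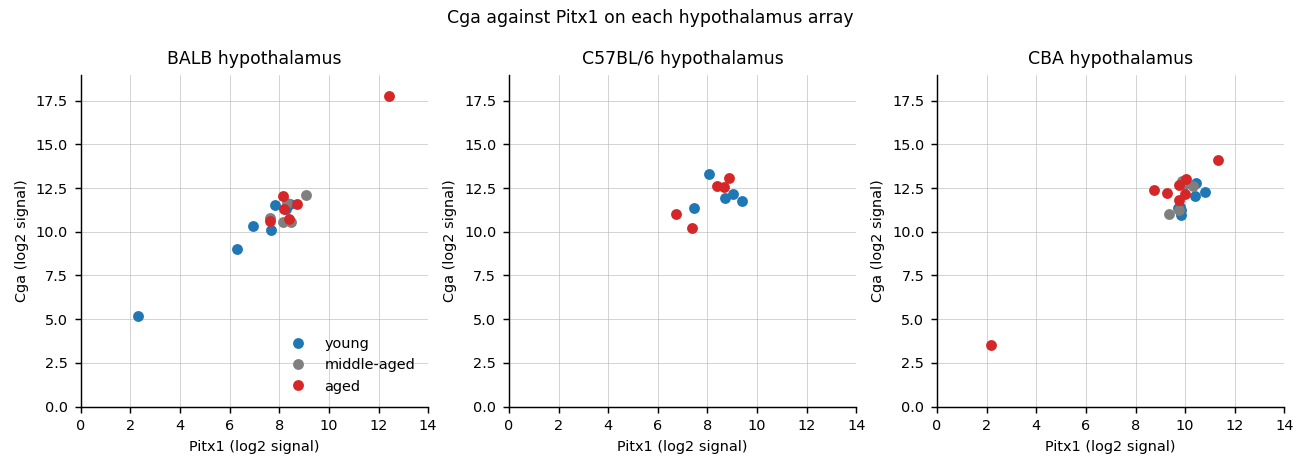
Normalized log2 signal of Cga against that of Pitx1 on the hypothalamus arrays, 1 panel per strain, 1 point per array coloured by age group. In BALB the points run from young array 5 (2.31, 5.16) to aged array 2 (12.42, 17.74), and in CBA aged array 6 (2.16, 3.50) lies apart from the other 19 arrays.

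The genes whose pattern was most like the members' mean differed between strains. Over the 18 BALB hypothalamus arrays the closest included Rxrg, a retinoid receptor, with r = 0.882, Pomc with 0.871, the unnamed probe A_51_P410404 with 0.849, and then Nucb2, Ddost, Rab3d, 5330417C22Rik, Glb1l2 and Cldn3, down to r = 0.809. Without aged array 2 these values fell to between 0.502 and 0.741. Over the 20 CBA arrays they included Wfdc2 with 0.797 and Pitx1 with 0.783, then Cyp2f2, Rab25, Epcam, Ap1m2, Six2, Tmem30b and Syne4 with 0.696. Without aged array 6 they fell to between 0.378 and 0.586. Over the 10 C57BL/6 hypothalamus arrays they were D330013E07Rik with 0.879, then NAP044345-1, TC1451194, Crp, Lce3c, Gpr31b, Kctd19, Trim34a, NAP050849-1 and AK086995 with 0.783. The median over all probes was between 0.0394 and 0.0603 in these cohorts. In the other cohorts the closest were 2810430M08Rik in BALB cerebellum with 0.717, 1700028K03Rik in BALB striatum with 0.889, AK081414 in C57BL/6 cerebellum with 0.885 and C030005H24Rik in frontal cortex with 0.964. Pomc ranked 2 of 27562 probes in BALB hypothalamus, 2 of 33275 in BALB cerebellum (r = 0.699) and 31 of 36862 in C57BL/6 cerebellum (r = 0.751). Arrays of a cohort share a normalization, and these values carry no test.

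Other genes of the axis between hypothalamus and pituitary did not pass B > 0 with age in any hypothalamus cohort. For aged against young mice, 0 of 8, 0 of 10 and 0 of 9 tested transcription factors of the anterior pituitary were called in BALB, C57BL/6 and CBA, with median differences of 0.39, -0.15 and -0.07 log2 units, and 2, 1 and 0 at an unadjusted limma p under 0.05. Over all genes 0.913%, 0.142% and 0.415% were called and 11.3%, 5.95% and 8.11% had such a p, so counts this small say nothing about the lists. Of the hypothalamic factors that act on these hormone genes (among them Ghrh, Sst, Trh, Gnrh1 and Th), 0 of 8, 0 of 8 and 0 of 9 were called, with medians of -0.16, -0.28 and 0.04 and 1, 1 and 0 at that p. Of the hormone receptors and hormone-induced genes of the brain (among them Ghr, Prlr and Igf1), 0 of 8, 0 of 9 and 0 of 8 were called, with medians of 0.02, -0.11 and -0.04 and 0, 1 and 1 at that p. The receptors of pituitary endocrine cells gave 0 of 5, 0 of 7 and 0 of 6, genes of corticotrophs and the intermediate lobe 0 of 5, 0 of 6 and 0 of 5, and secretory granule proteins 0 of 5 in each strain, with 2 genes at that p, both of the corticotroph and intermediate lobe list in C57BL/6. In C57BL/6 hypothalamus 5 of 6 thalamus markers were called higher in aged mice by B > 0, in the same samples as the hormone genes. They ran from Prkcd at 2.31 to Ntng1 at 1.05 log2 units, with limma adjusted p between 0.236 and 0.287. In CBA 1 of 6 genes of the meninges, Col1a1, was called lower in aged mice, at -0.82 (limma adjusted p = 0.0856). The part of such differences in the levels of the hormone genes was not tested.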

How the data were processed

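The authors hybridized RNA, amplified in 1 round, from 1 mouse per array and scanned it with Agilent Feature Extraction 9.1. The deposited scanner files give each spot as an intensity, linear in brightness, with background subtracted. A second table that the authors deposited holds log2 values after quantile normalization inside each cohort. The genome build of the probe design is not given in the sources used here. No per-sample column was set aside as unmapped (0).

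Control spots and outlier spots were left out, processed intensities were put on the log2 scale, repeated spots were averaged by probe, and each cohort was quantile normalized by itself, following the study's methods. Of 41174 and 43674 probes on the 2 designs, 22951 and 23185 were named through RefSeq. To be tested, a probe had to be marked well above background on a number of arrays no lower than the size of the smaller group. All age groups of a cohort entered 1 fit with lmFit and eBayes (prior proportion 0.01) of limma 3.58.1 in R 4.3.3, and a gene was called at B > 0. Adjusted p-values are Benjamini-Hochberg values of limma over all probes tested, unless a permutation test is named. Permutation tests were two-sided, exact for group differences and with 100000 resamples for correlations. The number of arrays limits the precision. The steps were tested on simulated data.

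Named genes are the 7 members, genes called in lists of markers of pituitary, hypothalamus and brain regions, and the 10 genes of each cohort whose levels correlate best with the mean of the centred members. Genes of pituitary lists on aged BALB hypothalamus array 2, and Pitx1 beside Cga, were chosen after their values were seen. Some genes of these lists are not reported here by name. The members and lists were chosen with earlier results of these data known. Alternatives were scaling to the 75th percentile, normexp correction (offset 50) of the mean spot signal, or of the median one in the cohorts whose files lack the mean, no filter and a strict one, outlier spots kept, the mean of a gene's probes, the series table, slide as fixed or random block (statmod 1.5.0), a replicate block and each array left out. The relations of Gh without aged BALB hypothalamus array 2, and as deviations from slide means over slides with more than 1 array, were added after seeing the data. Detection flags gave the filter and the counts of arrays well above background.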

Additional observations from a re-analysis of the deposited data

Results flagged for a closer look

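In groups of 4 to 10 arrays, an array was singled out when the gap between it and its nearest neighbour took up more of the range of the group than Dixon's test allows at the 5% level. Of 119 groups of a gene, a cohort and an age, 13 held such an array, where chance gives 5.95.

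On aged BALB hypothalamus array 2 the gap was 0.962 of the range for Pou1f1, 0.812 for Lhb, 0.8 for Cga, 0.751 for Fshb and 0.663 for Tshb, with the array at the top each time. Gh and Prl were also highest on it, without passing the limit. In young BALB hypothalamus Cga was low on array 5, at 5.16, with a gap of 0.603 of the range.

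In aged CBA hypothalamus Gh was high on array 7, at 13.07 (0.784 of the range), Cga was low on array 6, at 3.50 (0.789), and Lhb was low on array 8, at 7.59 (0.528). In aged BALB striatum Gh was high on array 4, at 5.50 (0.916), and Lhb was low on array 2, at 8.49 (0.754). Pou1f1 was high on aged BALB cerebellum array 1 (0.965) and young C57BL/6 cerebellum array 1 (0.832), at 2.16 and 1.88, neither well above background.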

How the results depend on the processing

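No member passed B > 0 in any of the 17 comparisons under scaling to the 75th percentile, no filter, a strict filter, outlier spots kept, either slide block or with any single array left out, where each could be fitted. With normexp correction or on the series table this held in 16 of them, and in aged against young CBA hypothalamus 1 member, Tshb, was called under each. Leaving out single arrays moved that Tshb difference between -3.16 and -2.35, and the middle-aged one between -3.99 and -2.61. The mean of a gene's probes was fitted for Tshb and Lhb in aged against young hypothalamus of each strain. Tshb was fitted this way in middle-aged against young CBA mice too. Neither gene passed B > 0, and no other comparison was fitted this way.

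By the rank of the probe within its array, the hypothalamus median was higher in 9 pairs of cohorts for Lhb and in 10 for Pou1f1, against 5 and 6 on the log2 scale.

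Differences near 0 changed sign. Aged minus young in BALB hypothalamus, Gh was 0.78 with normexp, 0.71 on the series table, 0.42 with slide as a fixed block and 0.10 as a random block, Tshb was 0.37, 0.47 and 0.46 with the first 3 of these, and Lhb was -0.070 as the mean of all probes. In CBA hypothalamus Cga was 0.078 with normexp and 0.054 on the series table, and Fshb 0.011 with slide as a fixed block. The cause was not tested.

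With single arrays left out, aged minus young in BALB hypothalamus lay between -1.99 and 1.07 for Gh, -0.42 and 0.58 for Lhb, and 1.39 and 2.82 for Cga. In C57BL/6 hypothalamus the range was -1.41 to 0.29 for Gh, -0.51 to 0.21 for Cga and -1.07 to 0.092 for Tshb. In CBA hypothalamus it was -0.63 to 0.89 for Cga, -0.20 to 0.065 for Fshb and -0.047 to 0.24 for Lhb.

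Relations of Gh crossed the adjusted threshold in both directions. With 75th percentile scaling it was passed by Prl in BALB cerebellum (r = 0.611), Lhb in BALB hypothalamus (0.610), Fshb in C57BL/6 hypothalamus (0.713) and Cga in BALB striatum (0.71). As deviations from age means it was passed by Prl in BALB cerebellum (0.612) and Cga and Lhb in BALB hypothalamus (0.631 and 0.613), and as deviations from slide means by Lhb in BALB hypothalamus (0.558). Without the 2 arrays farthest from the median of Gh it was lost by Tshb in BALB hypothalamus (0.605), Prl in BALB striatum (0.285) and Prl and Cga in C57BL/6 cerebellum (0.276 and 0.151), and as deviations from slide means by Prl in BALB striatum (0.744).

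Without those 2 arrays r of Gh changed sign with Cga in BALB cerebellum (-0.00571) and striatum (-0.278), with Fshb in BALB and C57BL/6 cerebellum (0.0742 and 0.0552) and with Lhb in BALB and C57BL/6 cerebellum (0.0398 and 0.369). As deviations from slide means it did so in BALB cerebellum with Cga (-0.124), Lhb (0.287) and Fshb (0.234) and in C57BL/6 hypothalamus with Tshb (0.0747). With Fshb in BALB cerebellum it was 0.0482 with 75th percentile scaling, and with Lhb in C57BL/6 cerebellum 0.0276 as deviations from age means.

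Replicate numbers were not taken to pair the arrays. The deviations of same-numbered arrays correlated between -0.116 and 0.403 over 16 pairs in BALB hypothalamus and between -0.310 and 0.567 over 17 pairs in CBA. They correlated between -0.268 and 0.604 over 11 pairs in BALB striatum, and at 0.248 and 0.82 in the 2 pairs of frontal cortex. With the replicate block, 0 members were called in each of the 16 comparisons fitted, Tshb in CBA was -2.76 (aged) and -3.58 (middle-aged), and Fshb in aged CBA was 0.058. Old and young frontal cortex arrays share too few numbers for this fit. In C57BL/6 hypothalamus each slide held 1 young and 1 aged array. The correlation between arrays of a slide, estimated over all probes tested, was 0.478 there and 0.423 in frontal cortex. The SEs and intervals given for these cohorts do not take the slide into account.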

Other observations

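The series table holds all 16 frontal cortex samples, 8 of which have no scanner file, on a log2 scale of its own. Prl in young mice ran from 5.95 to 12.95 with a median of 9.07 and in old mice from 5.80 to 11.26 with a median of 6.59. Gh ran from 5.68 to 9.14 with a median of 6.604 in young mice and from 5.66 to 7.74 with a median of 5.80 in old mice. Both genes had overlapping age groups. No member tested on this table for the cohort passed B > 0, and Gh failed the filter on low signal and was not among those tested. Cga ran from 6.18 to 7.52 in young and from 6.10 to 7.90 in old mice. Tshb and Pou1f1 kept between 5.45 and 5.78 on all 16, near the lowest values of the table.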
